A study of Homo sapiens with 6 samples.

Results

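The AP-1 transcription factor subunits measured here were FOS, FOSB, FOSL1, FOSL2, JUN, JUNB, JUND, ATF3, BATF3 and MAFF, chosen by name. The choice was made with earlier results of these data known. Every probe set annotated to exactly 1 of these symbols was used, which gave 23 of the 54613 probe sets tested and 10 of the 19775 genes that had a probe set of their own. FOSL2 had 5 probe sets, JUN and JUND had 4 each, ATF3 had 3, MAFF had 2, and the other 5 genes had 1 each. RNA of SNU-449, an established line of human hepatocellular carcinoma, was hybridised to 6 Affymetrix arrays. Of these, 3 held RNA of cells that stably carried a USP48 lentivirus under puromycin selection, genotype USP48 OE, and 3 held RNA of cells with the vector alone, genotype Ctrl. USP48 is a deubiquitinating protease of the ubiquitin-specific family. The titles speak of transfection and the protocol of lentiviral transduction, and the labels do not state the promoter of the construct, whether a line is 1 clone, or how the vector cells were selected. Nor do they tie replicates to separate cultures, so the p-values rest on a spread between arrays that could be technical.

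AP-1 is a family of dimers of basic leucine zipper (bZIP) proteins. JUN proteins pair with each other or with FOS proteins, and FOS proteins need a JUN partner to bind DNA. The dimers bind the AP-1 response element or the related cyclic AMP response element, and MAP kinases raise AP-1 activity both by phosphorylating existing subunits and by inducing transcription of the FOS and JUN genes. ATF3 and BATF3 can pair with JUN proteins, and the small MAF protein MAFF, which has no activation domain, pairs mainly with the cap'n'collar factors. In liver, JUN is known for its roles in hepatocyte proliferation and in liver tumour development.

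The promoters of a few subunits are shown because the elements that AP-1 and CREB proteins bind lie within AP-1 genes themselves. RefSeq promoter entries (GRCh38.p14) matched 8 of the 10 genes, in 10 start sites. FOSL1 and BATF3 had no entry. The 250 bases before each start were searched on both strands for TGANTCA (AP-1 response element), TGACGTCA (cyclic AMP response element), TGACATCA (the AP-1 element known from the JUN promoter), TGACG (the core of the cyclic AMP response element, which TGACGTCA contains), TATAAA (the core of the TATA box) and the CArG box, the core of the serum response element. The sequences below run 5′ to 3′ on the strand of the gene, and capitals mark the matches. FOS lies at chr14:75278578-75278827 (+ strand), JUN at chr1:58784048-58784297 (− strand), the upstream start of ATF3 at chr1:212565157-212565406 (+ strand), the upstream start of MAFF at chr22:38201744-38201993 (+ strand) and JUND at chr19:18281623-18281872 (− strand). FOS, JUN, ATF3 and MAFF are shown as members whose transcripts rose, and JUND as the JUN gene whose probe sets did not pass the test.
FOS: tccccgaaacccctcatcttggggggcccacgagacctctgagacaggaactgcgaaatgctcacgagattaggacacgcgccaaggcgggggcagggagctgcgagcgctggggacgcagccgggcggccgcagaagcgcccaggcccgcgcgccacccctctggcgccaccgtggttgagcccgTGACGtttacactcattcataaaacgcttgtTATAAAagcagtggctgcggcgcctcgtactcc
JUN: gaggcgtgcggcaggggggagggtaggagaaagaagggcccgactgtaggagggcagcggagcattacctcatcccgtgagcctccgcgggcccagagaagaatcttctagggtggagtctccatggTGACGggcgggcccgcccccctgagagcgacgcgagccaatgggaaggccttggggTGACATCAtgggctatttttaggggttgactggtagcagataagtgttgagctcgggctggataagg
ATF3: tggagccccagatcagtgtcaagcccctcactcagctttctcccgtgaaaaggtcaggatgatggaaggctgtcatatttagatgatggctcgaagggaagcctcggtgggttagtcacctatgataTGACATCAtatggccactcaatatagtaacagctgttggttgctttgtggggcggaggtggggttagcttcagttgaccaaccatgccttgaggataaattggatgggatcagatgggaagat
MAFF: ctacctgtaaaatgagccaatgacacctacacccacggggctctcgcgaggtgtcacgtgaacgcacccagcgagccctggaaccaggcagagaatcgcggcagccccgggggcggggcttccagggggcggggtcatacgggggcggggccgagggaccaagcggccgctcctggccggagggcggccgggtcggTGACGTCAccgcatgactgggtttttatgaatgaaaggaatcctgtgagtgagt
JUND: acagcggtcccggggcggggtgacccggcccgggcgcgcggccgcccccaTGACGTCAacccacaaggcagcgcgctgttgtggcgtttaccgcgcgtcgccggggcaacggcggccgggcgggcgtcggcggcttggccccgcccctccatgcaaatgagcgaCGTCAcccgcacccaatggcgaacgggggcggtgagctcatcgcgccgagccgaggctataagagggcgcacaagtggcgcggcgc

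The core TGACG was found in 7 of the 10 member windows, in 7 genes, against 21.2% of all 35116 promoter windows of this length. TGACATCA was found in the windows of JUN and of the upstream start of ATF3, and in 2.37% of all windows. The full TGACGTCA was found in the windows of MAFF (upstream start) and JUND, and in 1.65% of all windows. TGANTCA was in 0 member windows and 6.57% of all, and the CArG box in 0 member windows and 1.16% of all. Bases further upstream than these windows were not searched, so these counts do not show that a gene lacks either element. Whether the counts differ from the shares of all windows was not tested. TATAAA was in 4 member windows and 10.7% of all, and it stood about 30 bases before the start in FOS, FOSB and JUNB. The 7 genes with the core were FOS, FOSB, FOSL2, JUN, JUNB, JUND and MAFF. A link between the matches and the expression differences was not tested. A match is a description of these letters and not evidence of binding.

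**Figure D1:**
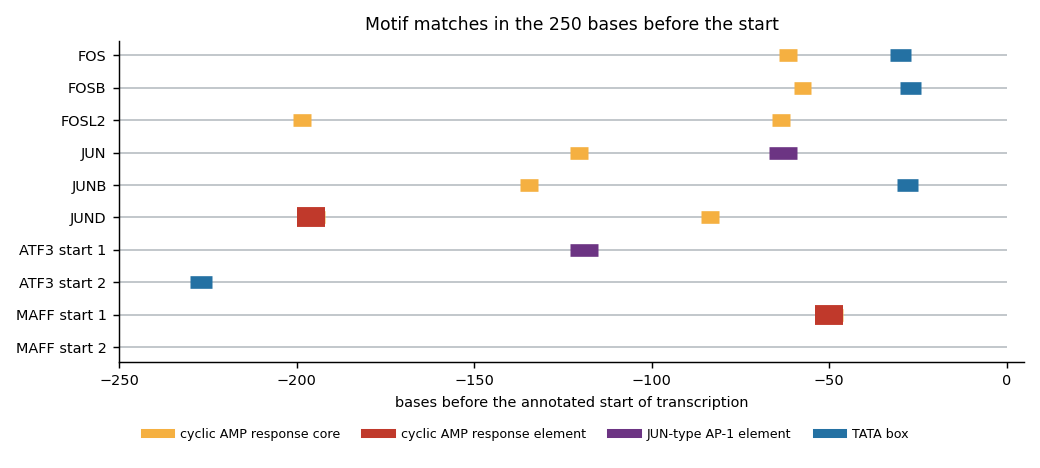
Positions of motif matches on either strand (coloured blocks) along the 250 bases before each annotated start of transcription (x axis, bases), for the 10 start sites of the 8 genes with a promoter entry. The core was matched in 7 of the 10 windows, TGACGTCA in MAFF start 1 and JUND, and TGACATCA in JUN and ATF3 start 1.

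The array data had features that touch these results. USP48 itself was not called higher: of its 5 probe sets, 0 were called higher and 2 were called lower by limma, and 1 was higher at an unadjusted p under 0.05. The 2 called lower were 220079_s_at at −0.82 and 220078_at at −0.63 on the log2 scale (limma adjusted p = 0.00013 and 0.00085). The 1 higher, 229812_at, was at 0.24, and the brightest, 225925_s_at, at −0.13 (limma adjusted p = 0.12 and 0.37). The groups are therefore called by their labels. The 18 hybridization control probe sets, RNAs added before hybridization, averaged 10.09 ± 0.10 on the USP48-labelled arrays and 9.79 ± 0.04 on the vector arrays on the log2 scale (SD, n = 3 each, two-sided exact permutation p = 0.1, the lowest value possible with 3 against 3). The difference between the 5′ and 3′ probe sets of GAPDH, a sign of RNA integrity, was −1.31 to −0.45 on the USP48-labelled arrays and −0.44 to −0.32 on the vector arrays, with the lowest value on USP48 replicate 3. Hepatocyte markers were dim: of 7 measured, TTR alone lay above the median of every array in both groups. Of 3 epithelial keratins, KRT8 and KRT18 were bright. KRT19, with means of 2.81 on the USP48-labelled and 2.81 on the vector arrays, lay below the median of every array. Markers of other cell types, VIM, CDH2, CD3E, PECAM1, CDH5, ACTA2, PDGFRB and DCN, also lay above it in both groups. Lying above the median thus does not identify a cell type. Of 3 leukocyte markers (PTPRC, CD3E and CD14) 0 were called in either direction by limma and 1, CD14, was higher at an unadjusted p under 0.05. Both mesenchymal markers measured were called lower, VIM at −0.42 and CDH2 at −0.65 on the log2 scale (limma adjusted p = 0.011 and 0.0016), and their summed level, as log2, was 11.15 to 11.39 on the USP48-labelled arrays and 11.64 to 11.73 on the vector arrays. Of 4 stellate cell or fibroblast markers, DCN was called lower (−1.14, limma adjusted p = 2.5e-05), and the summed level of the 4 was 6.90 to 7.03 on the USP48-labelled arrays and 7.81 to 8.04 on the vector arrays. Of 3 endothelial markers, CDH5 was called lower (−0.42, limma adjusted p = 0.018), and the summed level of the 3, 5.76 to 5.86 on the USP48-labelled arrays and 5.70 to 5.88 on the vector arrays, overlapped. The part of other cell types in the results was not tested.

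AP-1 subunit transcripts were mostly higher on the USP48-labelled arrays. Of the 23 probe sets, 16 were called higher and 0 lower (limma, Benjamini-Hochberg over all 54613 probe sets, threshold 0.05), against 10.6% of all probe sets called higher and 13.8% called lower. At an unadjusted p under 0.05, 18 were higher and 0 lower. All 3 USP48-labelled arrays lay above all 3 vector arrays for 18 of the 23, against 18.8% of all probe sets. At least 2-fold increases were called for 10 of the 23, against 1.24% of all. The 10 include FOSB, whose vector mean lay below the median of every array. The median log2 difference was 0.94 over the 23 probe sets and 0.03 over all probe sets. Taking each gene by its brightest probe set, 8 of the 10 genes rose, against 14.0% of all genes, and FOSL2 and JUND did not pass. With each gene taken as the mean of its probe sets, 9 of the 10 rose, against 13.8% of all genes, with FOSL2 as the added gene (0.41, limma adjusted p = 0.0040). The 16 probe sets also passed an adjusted p under 0.01, against 6.04% of all probe sets called higher at that threshold. As the members were chosen with earlier results known, these counts are not independent evidence of their direction. More expressing cells and more RNA per cell cannot be told apart in such bulk samples.

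The scaling of the arrays shifts all of these differences together. Scaled on the hybridization controls, every log2 difference was lower by 0.29, the median of all probe sets was −0.26 and that of the 23 was 0.65. Under that scaling 13 of the 23 were called higher and 2 lower, against 3.34% and 39.0% of all probe sets. FOSL1, MAFF, FOSB, FOS, JUNB, all probe sets of JUN, the brighter 2 of ATF3 and 1 of FOSL2 were still called higher.

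**Figure D2:**
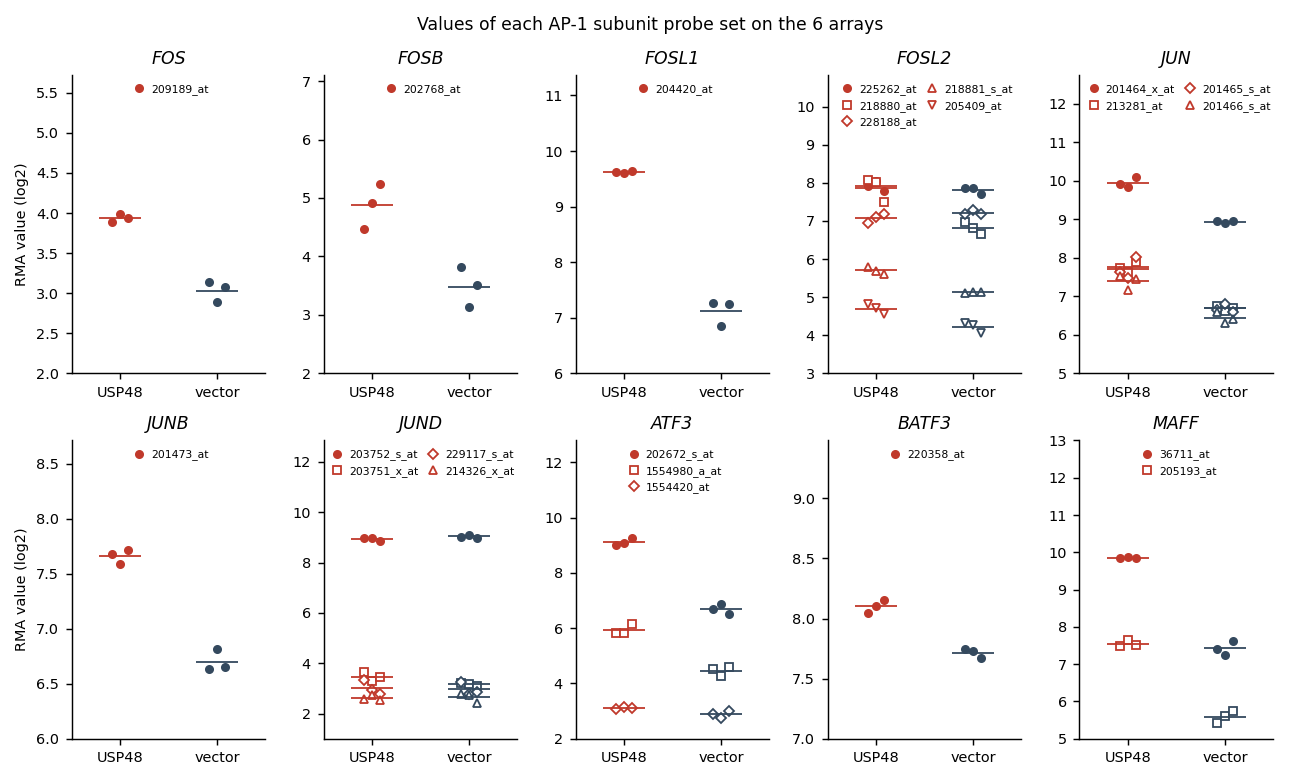
RMA values (y axes, log2, a separate range for each gene) of all 23 probe sets on the 3 USP48-labelled arrays (red, left) and the 3 vector arrays (dark, right). Filled points are the brightest probe set of a gene, open points its other probe sets, and lines are group means. The groups stand apart for 18 of the 23 sets, which are all sets of FOS, FOSB, FOSL1, JUN, JUNB, ATF3, BATF3 and MAFF, 3 of FOSL2 and 203751_x_at of JUND, and overlap for the brightest sets of FOSL2 and JUND.

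JUN, the most potent activator of the JUN proteins, rose about 2-fold by every probe set. Its brightest, 201464_x_at, was at 9.92, 9.84 and 10.10 on the USP48-labelled arrays, against 8.94, 8.90 and 8.96 on the vector arrays. The groups stood more than 0.8 apart, and within the vector group the values were nearly equal. The log2 difference was 1.02 (SE 0.10, limma adjusted p = 3.3e-05), a 2.03-fold higher value. The suffix _x_at marks probe sets with probes that can bind related transcripts, but 213281_at, without that mark, was higher by 1.06 and the others by 1.02 and 0.94. The within-array differences between the brightest and each of the other JUN probe sets changed by −0.04, 0.01 and 0.08 (two-sided exact permutation p = 0.3, 0.8 and 0.5).

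JUNB, a JUN protein that in mouse cells can oppose JUN in the control of proliferation, rose to 7.68, 7.59 and 7.71 on the USP48-labelled arrays, against 6.63, 6.81 and 6.65 on the vector arrays. The log2 difference of its probe set was 0.96 (SE 0.09, limma adjusted p = 3.9e-05), 1.95-fold, and the groups did not overlap.

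JUND, the JUN protein that most cells express constitutively, did not pass the test by any of its 4 probe sets. The brightest, 203752_s_at, was at 8.98, 8.99 and 8.84 on the USP48-labelled arrays, against 9.03, 9.11 and 8.98 on the vector arrays. These values overlap, and the log2 difference of −0.10 had a 95% interval of −0.31 to 0.10 (limma adjusted p = 0.47). The other 3 probe sets had group means below the median of every array in both groups. Their differences were 0.29, 0.05 and −0.04, and the 0.29 of 203751_x_at had an interval of 0.05 to 0.52 (limma adjusted p = 0.075). Scaled on the hybridization controls, 203752_s_at was called lower (−0.40, limma adjusted p = 0.018) and 203751_x_at was at 0.00.

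The unequal change of JUN genes was compared within arrays, which any scaling of whole arrays leaves as it is. The log2 value of JUN minus that of JUND, each by its brightest probe set, was 1.02 ± 0.21 on the USP48-labelled arrays and −0.11 ± 0.09 on the vector arrays (SD, n = 3 each), a change of 1.13. For JUNB minus JUND the values were −1.28 ± 0.14 and −2.34 ± 0.05, in the same order of groups, a change of 1.06. The groups stood apart in both, at the smallest p of the two-sided exact permutation test (p = 0.1, adjusted over the 2 pairs p = 0.1). These pairs were chosen after seeing the data, so their p-values are not independent evidence of an unequal change. Levels of different probe sets are not compared by them.

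FOSL1, also called FRA-1, a FOS protein that lacks the strong activation domain of FOS and is stabilised by ERK phosphorylation, had the largest log2 difference of the 23 probe sets as deposited. It was at 9.63, 9.60 and 9.64 on the USP48-labelled arrays, against 7.26, 6.85 and 7.25 on the vector arrays. The USP48-labelled arrays were nearly equal, and vector replicate 2 was the lowest of all. The log2 difference was 2.50 (SE 0.12, limma adjusted p = 6.1e-07), 5.67-fold, a difference above that of 99.9% of all probe sets tested.

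FOS and FOSB, the immediate early members of the family, rose from dim values. FOS was at 3.88, 3.99 and 3.94 on the USP48-labelled arrays, against 3.14, 2.89 and 3.07 on the vector arrays. The log2 difference was 0.91 (SE 0.10, limma adjusted p = 7.4e-05). FOSB was at 4.48, 4.91 and 5.24 on the USP48-labelled arrays, against 3.82, 3.13 and 3.51 on the vector arrays, and had the widest spread of the 23 probe sets in each group (SD 0.38 and 0.34). Its log2 difference was 1.39 (SE 0.20, limma adjusted p = 0.00050). The groups did not overlap for either gene. The vector means of both genes, 3.03 for FOS and 3.49 for FOSB, lay below the median of every array, which ranged from 3.74 to 3.79. No detection calls were used, so no fold value is given for them.

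FOSL2, also called FRA-2, another FOS protein without a strong activation domain, gave different answers by probe set. Its brightest, 225262_at, was at 7.91, 8.05 and 7.78 on the USP48-labelled arrays, against 7.87, 7.86 and 7.71 on the vector arrays, which overlap. Its log2 difference of 0.10 had a 95% interval of −0.12 to 0.32 (limma adjusted p = 0.54). Probe set 228188_at did not pass either, at −0.14 with an interval of −0.36 to 0.07 (limma adjusted p = 0.34).

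The other 3 FOSL2 probe sets were called higher. Probe set 218880_at was at 8.06, 8.02 and 7.51 on the USP48-labelled arrays, against 6.97, 6.82 and 6.66 on the vector arrays. USP48 replicate 3, the array with the lowest GAPDH difference of 5′ to 3′ probe sets, was the lowest of its group, and the groups did not overlap. By the brightest probe set of each gene, this array was the highest of its group for FOSB, FOSL1, JUN, JUNB, ATF3 and BATF3. It was the lowest for FOSL2 and JUND, and in the middle for FOS and MAFF. The part of RNA integrity in the value of 218880_at was not tested. The log2 difference was 1.05 (SE 0.15, limma adjusted p = 0.00046) and 1.22 without USP48 replicate 3. The differences of 218881_s_at and 205409_at were 0.58 and 0.48 (limma adjusted p = 0.00087 and 0.0079), and neither passed when scaled on the hybridization controls (limma adjusted p = 0.078 and 0.27), where 228188_at was called lower (−0.44, limma adjusted p = 0.0066).

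Within arrays, 225262_at minus 218880_at was 0.05 ± 0.21 on the USP48-labelled arrays and 0.996 ± 0.091 on the vector arrays (SD, n = 3 each), a change of −0.95 with groups that stood apart (two-sided exact permutation p = 0.1). Over the 13 pairs of probe sets of the same member gene, that p adjusted to 0.19, which is also the lowest adjusted value. Where these probe sets lie on the FOSL2 transcripts was not analysed here.

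**Figure D3:**
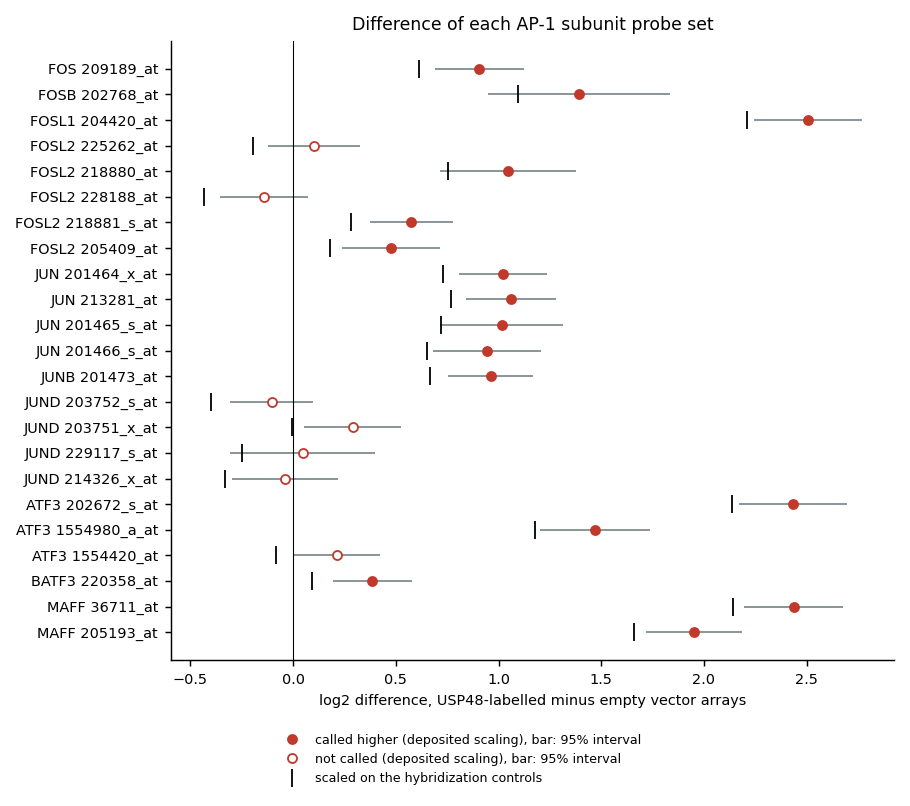
Log2 difference of each probe set (x axis, USP48-labelled minus vector arrays, n = 3 each), with its 95% limma interval. Filled points were called higher, open points did not pass, and black ticks give the difference after scaling on the hybridization controls. All 4 JUN sets lie between 0.94 and 1.06, while the 5 FOSL2 sets run from −0.14 to 1.05. Under the second scaling 225262_at and 228188_at of FOSL2, 1554420_at of ATF3 and all 4 JUND sets lie at or below 0.

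ATF3, a stress-induced bZIP protein that represses as a homodimer and can activate with JUN proteins, rose by its brighter 2 probe sets. Probe set 202672_s_at was at 9.00, 9.06 and 9.28 on the USP48-labelled arrays, against 6.69, 6.87 and 6.49 on the vector arrays. The groups stood more than 2 apart on the log2 scale. The log2 difference was 2.43 (SE 0.12, limma adjusted p = 7.2e-07), 5.39-fold. Probe set 1554980_a_at was higher by 1.47, 2.77-fold (SE 0.12, limma adjusted p = 1.3e-05). The dim 1554420_at, with both means below the median of every array, was at 0.21 (95% interval 0.00 to 0.42, limma adjusted p = 0.14) and at −0.08 when scaled on the hybridization controls. Within arrays the brightest minus 1554980_a_at was 3.18 ± 0.05 on the USP48-labelled and 2.22 ± 0.35 on the vector arrays (SD, n = 3 each, two-sided exact permutation p = 0.1).

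MAFF, a small MAF protein that binds DNA with NFE2L1 or NFE2L2, rose by both probe sets. Probe set 36711_at was at 9.84, 9.89 and 9.85 on the USP48-labelled arrays, against 7.39, 7.24 and 7.63 on the vector arrays. The other, 205193_at, was at 7.49, 7.65 and 7.50 on the USP48-labelled arrays, against 5.43, 5.61 and 5.74 on the vector arrays. Neither pair of groups overlapped. The log2 differences were 2.44 (SE 0.11, limma adjusted p = 5.3e-07), 5.41-fold, and 1.95 (SE 0.11, limma adjusted p = 1.3e-06), 3.87-fold.

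BATF3, which pairs with JUN proteins and is known for its need in a class of mouse dendritic cells, had the smallest difference among the called probe sets. It was at 8.04, 8.11 and 8.16 on the USP48-labelled arrays, against 7.75, 7.73 and 7.67 on the vector arrays. The groups did not overlap, but the gap between them was under 0.3. The log2 difference was 0.39 (SE 0.09, limma adjusted p = 0.0080), 1.31-fold, and 0.09 with no call when scaled on the hybridization controls (limma adjusted p = 0.50).

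**Figure D4:**
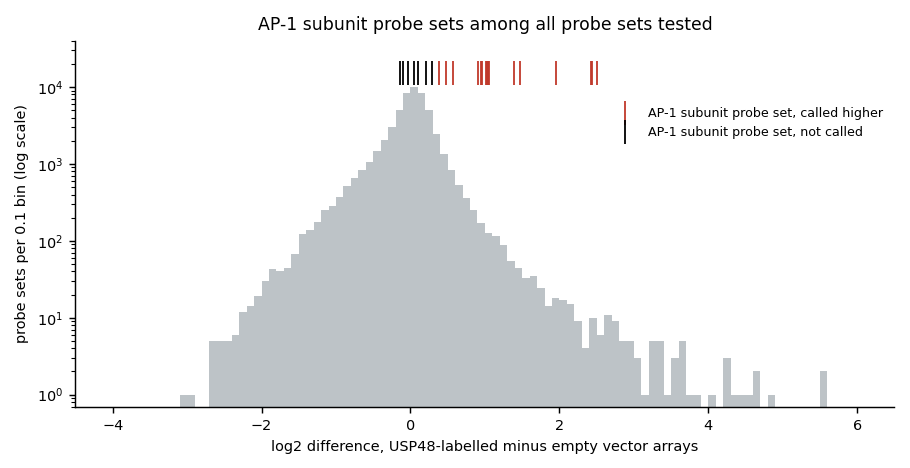
Histogram of the log2 difference (x axis, USP48-labelled minus vector arrays) of all 54613 probe sets tested, in bins of 0.1 (y axis, number of probe sets, log scale), with the 23 AP-1 subunit probe sets as ticks above it. The 16 called sets (red) run from 0.39 to 2.50, and the 7 others (black) from −0.14 to 0.29.

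Other bZIP proteins that pair with these subunits were counted by the brightest probe set of each gene. Of 12 measured, 6 rose and 0 fell by limma, against 14.0% and 13.2% of all genes, and at an unadjusted p under 0.05 the counts were 7 and 1. The median log2 difference of the list was 0.36 and that of all genes 0.05. BATF2, an interferon-induced relative of BATF3, was at 6.26 ± 0.47 on the USP48-labelled arrays and 4.18 ± 0.23 on the vector arrays (SD, n = 3 each), a log2 difference of 2.07 (limma adjusted p = 4.2e-05). CREB5 was higher by 0.91, from a vector mean below the median of every array, and its probe sets ran down to 0.04. ATF4, the effector of the integrated stress response, was higher by 0.82, and NFE2L1, a partner of MAFF, by 0.69. Scaled on the hybridization controls, 4 rose and 1 fell, against 4.64% and 36.1% of all genes. Without USP48 replicate 3 or vector replicate 2, 1 also fell.

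Genes of the MAP kinase cascades, which phosphorylate AP-1 subunits and drive their transcription, did not move together. Of 24 measured, 2 rose and 6 fell, against 14.0% and 13.2% of all genes, and at an unadjusted p under 0.05 the counts were 2 and 8. The median log2 difference was −0.07, against 0.05 over all genes. MAP2K6, an activator of p38 kinases, was at 7.57 ± 0.44 on the USP48-labelled arrays and 8.19 ± 0.18 on the vector arrays (SD, n = 3 each), a log2 difference of −0.62 (limma adjusted p = 0.034). MAPK8, which encodes JNK1, was higher by 0.58, although another of its probe sets was at −0.62. MAP2K4, an activator of JNK, was lower by 0.57 as a log2 difference, with another probe set at 0.10. MAP3K2 was at −0.48 by its brightest probe set and from −1.16 to 0.30 over all of them. MAP2K6 and MAP3K2 each lost the call without any 1 of 5 arrays (limma adjusted p = 0.056 to 0.13 and 0.056 to 0.11), all but USP48 replicate 2 for MAP2K6 and USP48 replicate 3 for MAP3K2. As means of their probe sets, MAPK8 and MAP2K4 did not pass (limma adjusted p = 0.053 and 0.072). The count of 6 lower genes was 2 without any 1 of USP48 replicate 1, vector replicate 1 and vector replicate 2, and 14 when scaled on the hybridization controls, against 36.1% of all genes called lower under that scaling.

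Among the nuclear factors that act on the FOS promoter, SRF with its ternary complex partners and CREB proteins, 3 of 8 rose and 2 fell, against 14.0% and 13.2% of all genes, with a median log2 difference of 0.00. At an unadjusted p under 0.05, 3 were higher and 3 lower. CREM, a CREB relative, rose by 1.91 on the log2 scale, to 8.78 ± 0.25 on the USP48-labelled arrays, against 6.87 ± 0.15 on the vector arrays (SD, n = 3 each). Over all CREM probe sets the log2 differences ran from −0.10 to 2.27. ELK4, a ternary complex factor, fell by 1.72 by its brightest probe set, to 5.32 ± 0.37 on the USP48-labelled arrays, against 7.03 ± 0.14 on the vector arrays (SD, n = 3 each), while another of its probe sets was at 1.12. MRTFB, an SRF coactivator, was at −1.17 and another of its probe sets at 0.13. CREB1 was at 0.50 by its brightest probe set and down to −0.50 by another, and did not pass without any 1 of USP48 replicate 1, vector replicate 2 and vector replicate 3 (limma adjusted p = 0.051, 0.059 and 0.054). The 3 that rose were 1 without USP48 replicate 1 or vector replicate 2, and 1 when scaled on the hybridization controls, against 4.64% of all genes called higher under that scaling.

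Of 11 cofactors and ubiquitin ligases that act on AP-1 proteins, 1 rose and 1 fell, against 14.0% and 13.2% of all genes, with a median log2 difference of −0.07. At an unadjusted p under 0.05, 1 was higher and 4 were lower. COP1, a ligase subunit that targets JUN proteins for degradation, was at 7.25 ± 0.06 on the USP48-labelled arrays and 7.87 ± 0.07 on the vector arrays (SD, n = 3 each), a log2 difference of −0.62 (limma adjusted p = 0.00051). ITCH, a ligase known in mouse cells to act on JUN and JUNB, was at 0.41 (limma adjusted p = 0.012) by its brightest probe set and at −0.22 by another. Scaled on the hybridization controls, 0 rose by limma and 6 fell, against 4.64% and 36.1% of all genes, and 2 fell without vector replicate 3.

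Genes described as AP-1 targets were mostly higher or not called. Of 26 measured, 14 rose and 0 fell by limma, against 14.0% and 13.2% of all genes, and 15 and 1 at an unadjusted p under 0.05. The median log2 difference was 0.52. The list was chosen with results of these samples known, so it is not independent evidence of its direction. The neutrophil chemokine CXCL8 had a log2 difference of 5.50, from a vector mean of 2.89 below the median of every array, and its other probe set was at 1.60. The cytokine IL6 had a log2 difference of 4.81, the phosphatase DUSP1, which inactivates MAP kinases, 1.27, and the collagenase MMP13, with a vector mean of 2.90, also 1.27. Over all DUSP1 probe sets the log2 differences ran from 0.34 to 1.27. The other MMP genes of the list did not pass. MMP1, a classical AP-1 target, had means of 1.08 on the USP48-labelled and 0.93 on the vector arrays, and MMP3 0.91 and 0.94, in the same order of groups. Scaled on the hybridization controls, 11 targets rose and 2 fell, against 4.64% and 36.1% of all genes, and 1 fell without USP48 replicate 3.

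**Figure D5:**
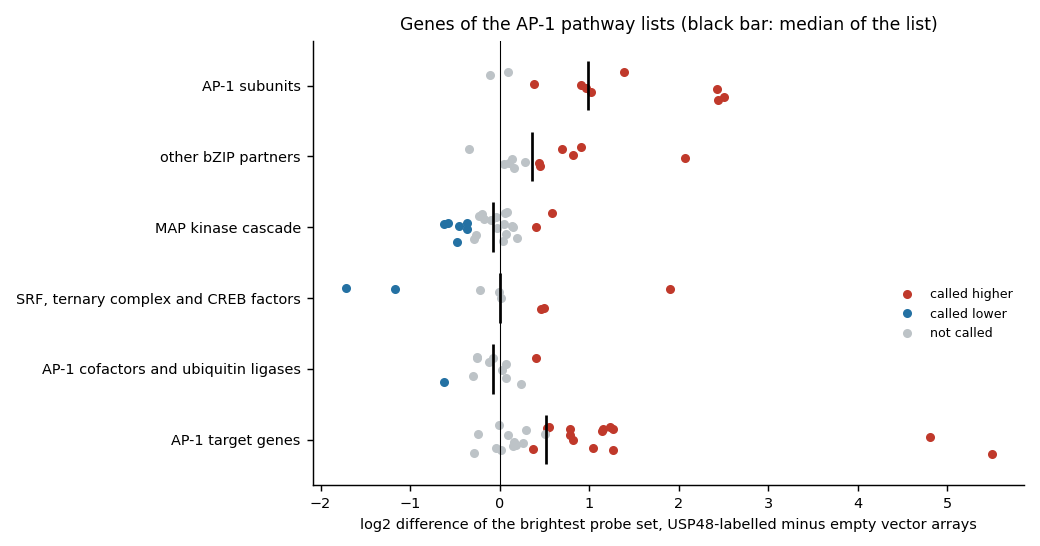
Log2 difference of the brightest probe set of each gene (x axis, USP48-labelled minus vector arrays, n = 3 each) for the AP-1 subunits and 5 lists of related genes, with 1 point a gene and the vertical bar at the median of the list. The medians lie at 0.99 for the subunits, 0.36 for other bZIP partners and 0.52 for AP-1 targets, and at −0.07, 0.00 and −0.07 for the kinase, SRF and cofactor lists; scaling on the hybridization controls lowers each by 0.29.

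The genes whose pattern over the 6 arrays lay closest to the median pattern of the 10 subunits were TIPARP, BCL10, ZNF322, SOD2 and SNAPC5, by the Euclidean distance of centred log2 values (0.10 to 0.12). Their log2 differences ran from 0.92 to 1.02. With 2 groups of 3 arrays, such likeness rests mostly on the difference between the groups and is given as a description.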

How the data were processed

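Affymetrix arrays of SNU-449 cells, 3 labelled USP48 overexpression and 3 labelled vector, were grouped and numbered by title. The authors deposited log2 values from RMA (per the submitters' processing notes), with 1 value per probe set and array. No version or settings of RMA are stated. RMA makes the arrays' distributions alike and so hides any change in total RNA, and the number of arrays limits the precision. Values ran from 0.190 to 13.2.

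After 62 control probe sets were left out, limma 3.58.1 in R 4.3.3 (lmFit, eBayes, two-sided) was run on all 54613 probe sets, with Benjamini-Hochberg adjustment and a threshold of 0.05. The code was checked on simulated arrays with independent noise and a small share of changed probe sets. That check does not cover the differences in control level and RNA integrity between these arrays. Differences are USP48 overexpression minus vector. Genes on lists were read by their brightest probe set, named as the largest 4 differences past the threshold. Symbols came from the platform annotation (1 symbol on 41091 probe sets, several on 1801, none on 11721). Members of the lists without a probe set of their own were not analysed here. Pairs of probe sets were compared with scipy 1.17.1, and figures drawn with matplotlib 3.10.9. The members, lists, tests and alternatives were chosen with earlier results of these data known. The labels name no batch.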

Additional observations from a re-analysis of the deposited data

How the results depend on the processing

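As deposited, 16 member probe sets were called higher. The count was 16 at an adjusted p under 0.01, with quantile-normalized or median-centred arrays, without the dimmest 33.3% of probe sets and with a robust, intensity-dependent prior, and 16 to 17 with each array left out in turn. Over 14 alternatives, 301 of 308 values for single member probe sets kept their direction, where called, and their side of the threshold, and 0 called values changed sign. Scaling on the hybridization controls ended 3 of the calls and called 2 probe sets lower, 1 of them the brightest of JUND. The mean of all probe sets called FOSL2 higher (0.41, limma adjusted p = 0.0040), which gave 9 genes.

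Deviations of same-numbered arrays from their group means correlated at −0.02, 0.11 and −0.02, and 2 of 6 arrays correlated best with their own number. With so few arrays this cannot decide whether the replicate numbers pair the arrays. With the replicate number as a block, 16 member probe sets were called higher and 0 lower by limma, and 1 bZIP partner lower.

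The lists were less stable. With each array left out, counts were 0 to 1 lower bZIP partners, 2 to 6 lower kinases, 1 to 3 higher SRF and CREB factors, 1 to 2 lower cofactors and 0 to 1 lower targets. Scaling on the hybridization controls gave 1 lower bZIP partner, 1 higher and 14 lower kinases, 1 higher SRF or CREB factor, 0 higher and 6 lower cofactors and 2 lower targets. The mean of all probe sets gave 1 higher kinase, 1 lower SRF or CREB factor and 3 lower cofactors. Without the dimmest probe sets, 1 bZIP partner and 3 cofactors were lower, and with the intensity trend 1 and 4. At an adjusted p under 0.01, 1 kinase was lower, 1 SRF or CREB factor higher and 0 cofactors higher. Causes were not tested. FOS, FOSB, 1554420_at of ATF3 and 3 of the JUND probe sets had a vector mean below every array median, which limits what their differences show.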
